A study of Mus musculus with 6 samples.

Results

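The replication-dependent histone genes are 67 of the 21887 protein-coding genes on the main chromosomes of the mm10 annotation. A gene was taken as a member when its current symbol begins with H2ac, H2bc, H3c or H4c followed by a digit, or is H1f with a single digit from 1 to 5, or when one of its older symbols begins with Hist1h, Hist2h, Hist3h or Hist4h. H1f10, formerly H1fx, was not counted as a member and stands with the replication-independent histone genes. The current symbol brought in 62 genes, and 5 more (H1f6, H2aw, H2bu2, H4f16 and H4bc24) came in through an older symbol alone. H4bc24 was formerly Hist1h2br and is counted with the H2B genes. The members comprise 6 H1, 18 H2A, 18 H2B, 12 H3 and 13 H4 genes, of which 54 lie on chromosome 13, 10 on chromosome 3, 2 on chromosome 11 and 1 on chromosome 6.

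The data are peak lists from chromatin immunoprecipitation and sequencing of H3K4me3, a mark of the start regions of active and poised genes. The cells were Lgr5-positive progenitors, supporting cells of the cochlea sorted by the green fluorescence of a reporter driven from the Lgr5 locus (Lgr5-EGFP-creERT2 mice, strain C57BL/6, either sex, postnatal day 0 to 3). Cochleae of both groups were cultured in a medium with B27, N2, IGF-1, heparin sulfate, bFGF and EGF, and 1 group was treated for 12 h with neomycin, an aminoglycoside antibiotic that kills hair cells, while the other was untreated. Each group had 2 H3K4me3 libraries, and the labels do not say whether they came from separate cultures, so the spread between them may be technical.

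The core histones H2A, H2B, H3 and H4 form the nucleosome, and the linker histone H1 binds the DNA where it enters and leaves it. Replication-dependent histone genes supply this protein during DNA synthesis: they are short, mostly without introns, and their mRNAs end in a stem-loop in place of a poly(A) tail. Many are arranged in clusters that gather around the coactivator NPAT in the nucleus, and neighbouring H2A and H2B genes are often transcribed away from each other from a shared stretch of DNA.

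A gene was called marked in a library when at least 1 base of a deposited peak lay in the gene or within 1 kb of either end. The lists held between 10520 and 15938 peaks and no read totals, so sequencing depth is unknown. The deposited names of both untreated lists give H3K4me2 where the labels give H3K4me3 and 1 antibody, so the mark in these lists is uncertain, and a difference of mark cannot be told apart from a difference of treatment. The shortest peak of a list was 48 and 110 bp long with neomycin, and 187 and 234 bp without. The number of bases a peak covers therefore differs between the lists at every gene, not at the histone genes alone. Where 4 values stand in a row below, they follow the order neomycin replicate 1, neomycin replicate 2, untreated replicate 1, untreated replicate 2.

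The DNA between the starts of 3 divergent pairs of an H2A and an H2B gene is shown first, on the plus strand, because the pairs span the patterns described below. No peak of any library touched these stretches. The first pair carried a peak nearby in 3 libraries, the second in both neomycin libraries alone and the third in none. Sequences and coordinates are from RefSeq, build GRCm38.p6 (the assembly of mm10). Capitals mark exact matches, on either strand, to the TATA box (TATAAA), the CCAAT box (CCAAT) and the octamer (ATTTGCAT), which are the letters of known promoter elements.
H2ac12/H2bc12, chr13:22035643-22035821: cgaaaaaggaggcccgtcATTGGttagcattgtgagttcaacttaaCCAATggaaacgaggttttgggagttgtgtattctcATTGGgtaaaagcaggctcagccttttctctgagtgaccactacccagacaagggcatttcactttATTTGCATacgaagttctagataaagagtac
H2ac8/H2bc8, chr13:23571220-23571400: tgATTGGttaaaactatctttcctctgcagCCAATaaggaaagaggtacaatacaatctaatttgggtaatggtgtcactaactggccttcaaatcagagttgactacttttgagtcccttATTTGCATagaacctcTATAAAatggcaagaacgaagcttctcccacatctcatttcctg
H2ac15/H2bc15, chr13:21753912-21754076: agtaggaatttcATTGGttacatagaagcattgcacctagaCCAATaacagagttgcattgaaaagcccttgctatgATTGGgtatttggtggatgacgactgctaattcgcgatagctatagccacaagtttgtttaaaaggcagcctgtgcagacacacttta
All 3 stretches held CCAAT boxes: 3 in H2ac12/H2bc12, 2 in H2ac8/H2bc8 and 3 in H2ac15/H2bc15. An octamer was found in the first pair and in the second, and a TATA box in the second alone.

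The next 4 sequences are the 250 bases before the annotated start of members that stand for the extremes of the peak lists, each 5′ to 3′ on its own strand. H2ac21 and H4f16 were marked in all 4 libraries, H1f4 in both untreated libraries alone and H3c13 in both neomycin libraries alone.
H2ac21, chr3:96219635-96219884, plus strand: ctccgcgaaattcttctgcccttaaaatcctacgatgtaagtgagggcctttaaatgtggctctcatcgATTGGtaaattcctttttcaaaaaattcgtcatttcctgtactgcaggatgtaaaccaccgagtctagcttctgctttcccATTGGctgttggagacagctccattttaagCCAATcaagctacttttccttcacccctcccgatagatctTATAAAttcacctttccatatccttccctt
H4f16, chr6:136804432-136804681, minus strand: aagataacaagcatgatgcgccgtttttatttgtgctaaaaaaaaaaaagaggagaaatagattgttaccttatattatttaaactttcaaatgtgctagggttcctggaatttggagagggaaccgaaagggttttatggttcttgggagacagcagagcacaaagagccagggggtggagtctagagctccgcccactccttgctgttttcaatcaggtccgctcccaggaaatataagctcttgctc
H1f4, chr13:23622559-23622808, minus strand: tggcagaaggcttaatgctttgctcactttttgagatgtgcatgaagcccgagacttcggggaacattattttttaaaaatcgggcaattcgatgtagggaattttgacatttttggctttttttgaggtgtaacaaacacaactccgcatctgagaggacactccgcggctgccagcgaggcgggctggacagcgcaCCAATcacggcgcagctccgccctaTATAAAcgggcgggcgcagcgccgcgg
H3c13, chr3:96268404-96268653, plus strand: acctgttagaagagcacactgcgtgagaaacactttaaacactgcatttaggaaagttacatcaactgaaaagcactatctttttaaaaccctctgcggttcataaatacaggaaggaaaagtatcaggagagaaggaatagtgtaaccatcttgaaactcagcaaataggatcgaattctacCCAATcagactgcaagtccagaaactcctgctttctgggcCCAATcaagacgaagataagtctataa
The H2ac21 stretch holds 1 TATA box and 3 CCAAT boxes, that of H1f4 1 of each, and that of H3c13 2 CCAAT boxes. H4f16 holds none of the 3 motifs in these letters.

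Histone genes were marked in every library, and most often outside untreated replicate 2. In neomycin replicate 1, 32 of 67 members were marked (47.8%, 95% exact binomial interval 35.4 to 60.3), beside 39.3% of all protein-coding genes. In neomycin replicate 2 it was 35 members (52.2%, 39.7 to 64.6), beside 37.6% of all genes. In untreated replicate 1 it was 33 members (49.3%, 36.8 to 61.8), beside 51.0% of all genes. In untreated replicate 2 it was 17 members (25.4%, 15.5 to 37.5), beside 39.7% of all genes. The shares of the 2 groups overlap, since untreated replicate 1 lies between the neomycin libraries, and the low value belongs to 1 untreated library. Set beside all genes in the same library, both neomycin shares were higher and both untreated shares lower. In replicate 1 of each group the interval included the share of all genes. The intervals cover counting error only, and neighbouring genes share peaks: the marked members of the 4 libraries, in the same order, rested on 28, 35, 27 and 12 distinct peaks. Relabelling 2 libraries against 2 allows no two-sided exact permutation p under 0.333, so no test of these counts was made.

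**Figure D1:**
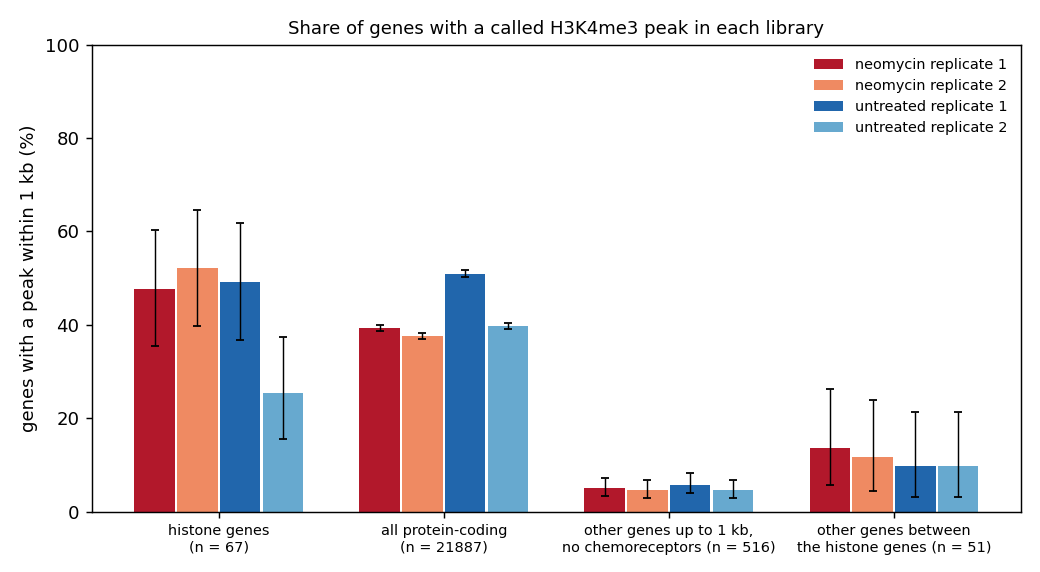
Percentage of genes with a called peak in the gene or within 1 kb of it (vertical axis), for 4 sets of genes (horizontal axis), 1 bar per library and 95% exact binomial intervals as error bars. The histone genes lie between 25.4% and 52.2% and all protein-coding genes between 37.6% and 51.0%, while other short genes and the other genes between the outermost histone genes of a chromosome lie below 14%.

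Histone genes are among the shortest in the genome, with a median length of 492 bp, and a short gene offers a peak a smaller target. Among members up to 1 kb long, 61 genes, the number marked was 29, 34, 29 and 13. Among the 516 other protein-coding genes up to 1 kb long that are not chemoreceptor genes, the shares were 5.04%, 4.65%, 5.81% and 4.65%. The 1000 chemoreceptor genes of that length were set apart after the values had been seen; with them the shares were 1.85%, 1.58%, 1.98% and 1.58% of 1516 genes. The histone genes of this length were thus marked more often than other genes of their length in each library. The 51 other genes that lie between the outermost histone genes of a chromosome were marked less often than the histone genes, with 7, 6, 5 and 5 genes (13.7%, 11.8%, 9.80% and 9.80%). Only 2 of the 51 lie inside the histone blocks described below, and 1, 1, 1 and 0 of these were marked. The rest lie between blocks, and chemoreceptor genes were not set apart among them. No test was made, because genes are not replicates.

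Most histone genes were marked in some library and few in all. At least 1 library marked 56 of the 67 members (83.6%), beside 59.5% of all protein-coding genes. All 4 libraries marked 3 members (4.48%), beside 19.8% of all genes. Leaving out neomycin replicate 1, neomycin replicate 2, untreated replicate 1 or untreated replicate 2 gave 8, 4, 5 or 12 members marked in all the others. Over all 21887 genes the counts rose too, from 4343 to 5590, 5797, 4518 or 5400. Between these ends lay 18 members marked in 1 library, 18 in 2 and 17 in 3, while 11 were marked in none. The lists of marked members overlapped only in part even within a group: the neomycin libraries shared 18 members, which is 56.2% of those of replicate 1 and 51.4% of those of replicate 2. Over all genes the same shares were 68.8% and 71.9%. The untreated libraries shared 11 members, 33.3% of those of replicate 1 and 64.7% of those of replicate 2, beside 71.9% and 92.4% over all genes. The largest number shared was across the groups, 22 members of neomycin replicate 2 and untreated replicate 1 (62.9% and 66.7%). Over all genes these shares were 87.7% and 64.6%. The other pairs across the groups shared 16, 10 and 10 members. When overlapping peaks of the 4 lists were merged, the members had 60 regions, and 37 of these came from 1 library, 10 from 2, 12 from 3 and 1 from all 4.

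**Figure D2:**
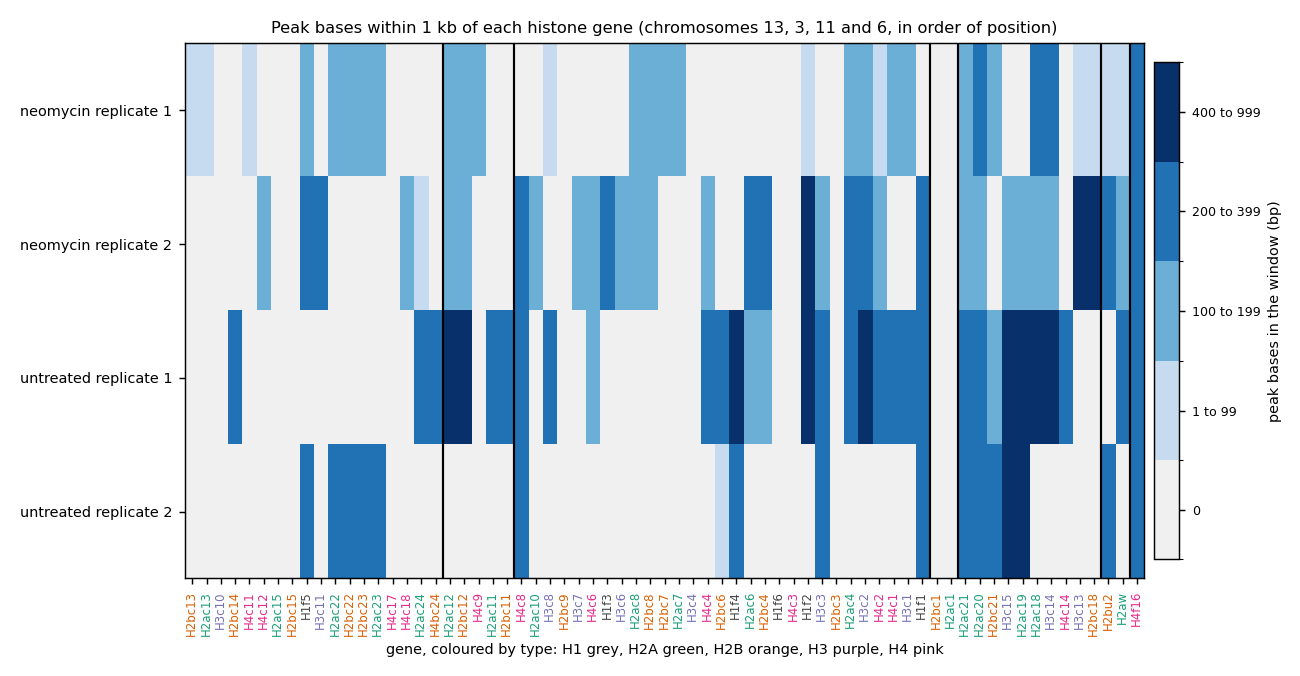
Peak bases in the window of each histone gene (colour, in bp), with the 67 genes in columns by chromosome and position, vertical lines between blocks, and the 4 libraries in rows. 11 columns are empty, and 3 columns, H2ac21, H2ac20 and H4f16, are filled in all 4 rows.

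Peaks at histone genes were weaker than, or close to, the typical peak of their own list. The authors' −log10 q-value of each peak was turned into a percentile of its list, and the median over peaks at members was 47.7, 38.5, 33.0 and 19.4. The authors' fold enrichment, the peak's height over the local background, had a median of 5.77, 6.00, 6.87 and 5.95 at members, beside 5.90, 6.00, 7.44 and 7.22 over the whole lists. The median peak length at members was 74.5, 139, 255 and 261 bp. Nearly all of these peaks touched the body of a histone gene: 27 of 28, 31 of 35, 26 of 27 and 12 of 12 in the 4 libraries.

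Each histone type was marked in part, and none stood out in all libraries. Of the 18 H2A genes, 11 were marked in each neomycin library, 10 in untreated replicate 1 and 5 in untreated replicate 2. For the 18 H2B genes the counts were 9, 5, 7 and 5. The 12 H3 genes gave 5, 8, 6 and 2. Counts for the 13 H4 genes were 5, 7, 7 and 2. Those for the 6 genes of linker histone H1 were 2, 4, 3 and 3. For H2A, H3 and H4 the lowest count was that of untreated replicate 2, for H1 that of neomycin replicate 1, and the lowest for H2B was shared by neomycin replicate 2 and untreated replicate 2. Counted over libraries, at least 1 library marked 16 of 18 H2A, 14 of 18 H2B, 10 of 12 H3, 11 of 13 H4 and 5 of 6 H1 genes.

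The large cluster on chromosome 13 contained all the members that were marked in no library. Its 54 genes gave counts of 22, 24, 23 and 10, and no gene there was marked in all 4 libraries. Split wherever neighbouring members are over 100 kb apart, the cluster falls into 4 blocks. The first, 18 genes at chr13:21715711-21837530, gave 8, 5, 3 and 5. The second, 5 genes at chr13:22035122-22043658, gave 3, 2, 4 and 0. The third and largest, 29 genes at chr13:23531044-23764412, gave 11, 17, 16 and 5. The last is H2bc1 and H2ac1, a pair known from the testis, and neither gene was marked in any library. The blocks did not follow 1 order: untreated replicate 1 was the lowest library in the first block and the highest in the second.

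**Figure D3:**
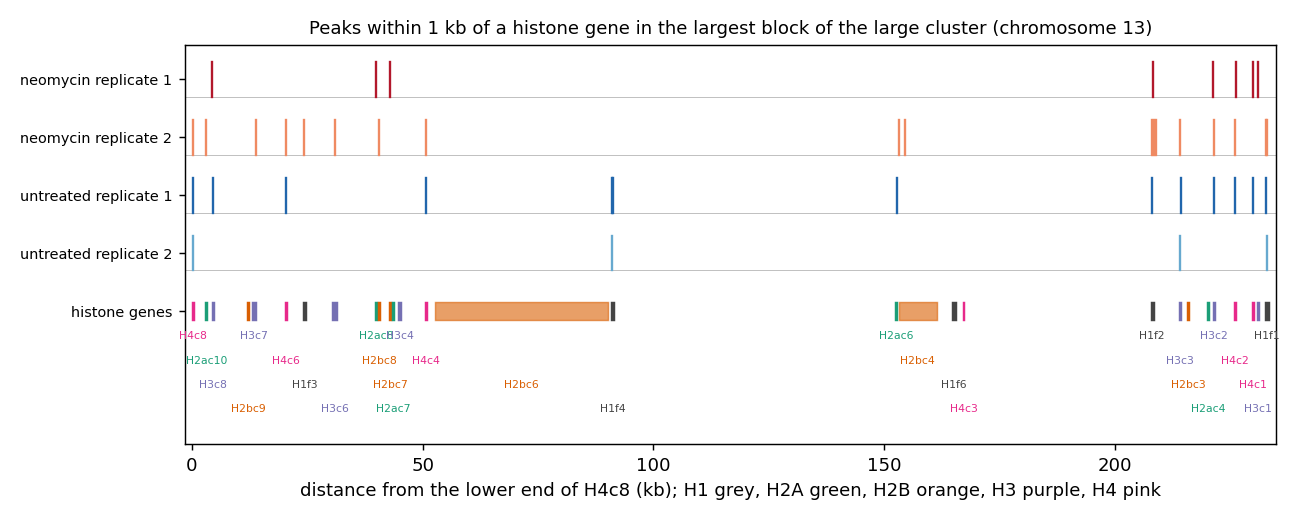
Map of the third block of the chromosome 13 cluster: histone genes (bottom row, coloured by type) and the centres of the peaks within 1 kb of a member (ticks, 1 row per library), against distance in kb from the lower end of H4c8. Both ends of the block carry ticks in most libraries, and untreated replicate 2 has the fewest.

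Within the large cluster the strongest peak belonged to different genes in different libraries. In both neomycin libraries the highest percentile was that of the divergent pair H2ac12 and H2bc12, at 86.5 in replicate 1 and 99.7 in replicate 2. This pair had 153 and 148 peak bases with neomycin, 453 in untreated replicate 1, where its percentile was 52.9, and none in untreated replicate 2. In untreated replicate 1 the highest was H1f2, which encodes a linker histone, at 93.5. Its peak bases were 78, 650, 620 and 0, so the low values lie in 1 library of each group. In untreated replicate 2 the highest was the H4 gene H4c8, at 74.4, with 0, 213, 239 and 245 peak bases.

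Near the upper end of the third block several genes were marked in 3 libraries, although H2bc3, which lies among them, was marked in none. H1f1, which encodes a linker histone, had 0, 362, 330 and 234 peak bases, and the H3 gene H3c3 had 0, 174, 335 and 262, so neomycin replicate 1 was the library without a peak at both. The H3 gene H3c2 had 126, 220, 420 and 0, its H2A neighbour H2ac4 had 126, 220, 268 and 0, and the H4 gene H4c2 had 95, 124, 260 and 0. At these 3 genes untreated replicate 2 was the library without a peak. H4c1 and H3c1, which share their peaks, had 124 and 256 bases in the first library of each group and none in the second.

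In the first block marking rested on single libraries more often, with 8 of 18 genes marked in 1 library, 5 in 2 and 1 in 3. The highest rank there was that of the H3 gene H3c11, at percentile 98.2 in neomycin replicate 2, where its peak bases were 374, and no other library had a peak at it. The 4 genes H2ac22, H2bc22, H2bc23 and H2ac23 were marked in the first neomycin and the second untreated library alone, with 124 and 293 peak bases at H2ac22 and H2bc22 and 168 and 234 at H2bc23 and H2ac23. At H2ac24 it was the other 2 libraries, with 60 bases in neomycin replicate 2 and 217 in untreated replicate 1.

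The second cluster, 10 genes over 50.3 kb of chromosome 3, had every gene marked in at least 1 library. The libraries marked 7, 8, 8 and 5 of its genes. H2ac21 and H2ac20, neighbouring H2A genes at chr3:96219885-96220354 and chr3:96220413-96220880, had the highest percentile of the cluster in neomycin replicates 1 and 2 (81.4 and 74.8) and in untreated replicate 2 (61.5). In untreated replicate 1 the highest was the pair H3c15 and H2ac19, at 83.0. H3c15 had 0 and 134 peak bases with neomycin and 960 and 611 without, and H2ac19 had 0 and 134 with neomycin and 865 and 580 without. For both genes each untreated value exceeded each neomycin value. Untreated peaks were longer over the whole lists as well. A limma fit of the kind described below took windows marked in at least 1 library, with 100 bp added and values centred. There neomycin minus untreated was −1.30 log2 for H3c15 (limma adjusted p = 0.376) and −1.20 for H2ac19 (limma adjusted p = 0.433). H3c14 and H2ac18, which share promoter sequence with H3c15 and H2ac19, both had 216 and 110 peak bases with neomycin and 609 and 0 without.

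**Figure D4:**
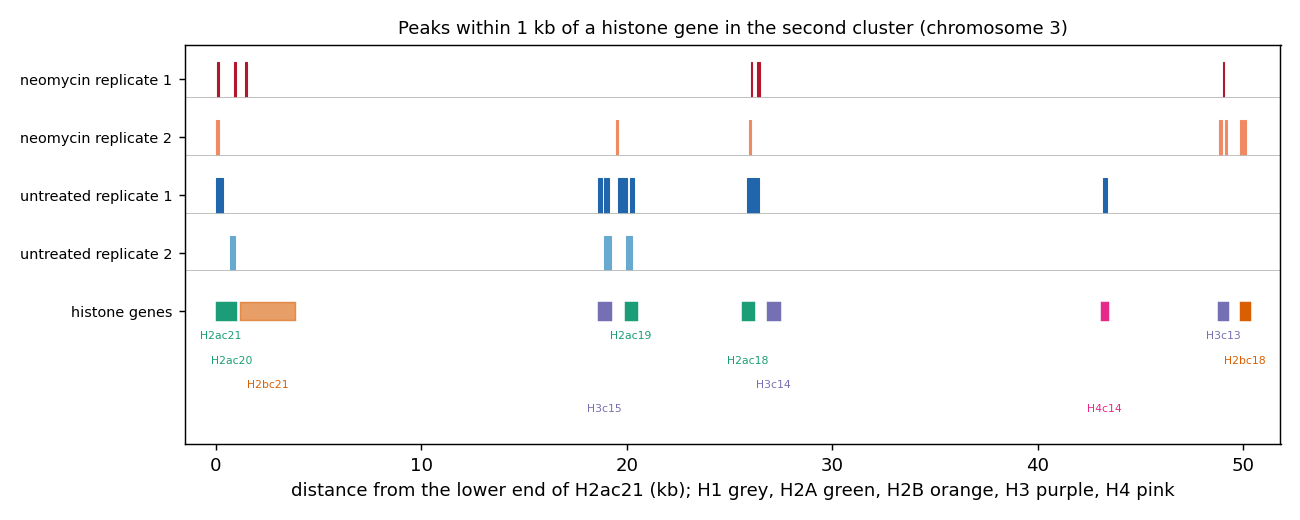
Map of the chromosome 3 cluster: histone genes (bottom row, coloured by type) and peaks within 1 kb of a member drawn to scale (1 row per library), against distance in kb from the lower end of H2ac21. Peaks at H3c13 and H2bc18, at the right end, appear in the neomycin rows alone, and those at H3c15 and H2ac19, near 20 kb, are widest in the untreated rows.

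The 2 members on chromosome 11, H2bu2 and H2aw, were each marked in 3 libraries. H2bu2, an H2B gene at chr11:58948911-58949372, had 68, 325, 0 and 234 peak bases. Its percentiles were 86.5 and 99.2 in the neomycin libraries and 15.95 in untreated replicate 2. H2aw, an H2A gene whose body ends at position 58955192, had 77, 123, 242 and 0 peak bases. The library without a peak was thus untreated in both cases, but not the same one.

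Of the members marked in all 4 libraries, H4f16 had its peaks in the same place. This H4 gene lies alone at chr6:136803993-136804431, and its peaks covered 262, 379, 352 and 330 bp. It carries the 1 region that all 4 libraries share, from 136804011 to 136804464, with summits 196, 359, 219 and 185 bp downstream of the annotated start. Only the untreated replicate 2 peak reached over the start base. The peaks ranked low in their lists except in neomycin replicate 1, with percentiles of 64.8, 18.8, 16.5 and 20.2. H2ac21 had 193 and 118 peak bases with neomycin and 347 and 260 without, and H2ac20 had 223 and 118 with neomycin and 347 and 260 without. These 2 genes share their peaks, and no single region was common to all 4 libraries. Peaks of neomycin replicates 1 and 2 and untreated replicate 1 overlapped near the start of H2ac21, with summits 95, 58 and 225 bp from it. In H2ac20, a further peak of neomycin replicate 1 overlapped the peak of untreated replicate 2.

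Covered bases were compared between the groups for the windows marked in all 4 libraries, as log2 of the summed bases centred on the median of each library, since the lists differ in peak length. With limma and Benjamini-Hochberg adjustment at 0.05, 0 of 4343 gene windows were called in either direction (0.0%), and 413 had an unadjusted p under 0.05. Of the histone genes, 3 could be fitted and 0 were called, and 1 of the 3 had an unadjusted p under 0.05. Relative to the median gene, the log2 difference of neomycin minus untreated was 1.48 for H4f16 (SE 0.58, 2 libraries per group, limma adjusted p = 0.434), with both centred neomycin values above both untreated ones. It was 0.71 (SE 0.66, limma adjusted p = 0.769) for H2ac20 and 0.60 (SE 0.64, limma adjusted p = 0.813) for H2ac21. Without centring all 3 differences turned negative, to −0.11 for H4f16, −0.89 for H2ac20 and −0.99 for H2ac21. Before centring, the median difference over all windows was −1.61, so these signs are relative to a general shift towards fewer peak bases with neomycin. Among these windows the uncentred fit called 1263 in all, each of them lower with neomycin and none a histone gene.

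A strict difference in presence between the groups was found for few members, and mostly not at 1 place. Both neomycin libraries and neither untreated library marked 4 members, H3c13, H2bc18, H2ac8 and H2bc8, beside 1.56% of all protein-coding genes. Both untreated libraries and neither neomycin library marked 2, H1f4 and H2bc6, beside 4.5% of all genes. With neomycin replicate 1, neomycin replicate 2, untreated replicate 1 or untreated replicate 2 left out, the first count was 11, 10, 13 or 6 and the second 3, 7, 2 or 7. The same counts over all genes were not made.

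The H3 gene H3c13, whose upstream sequence is printed above, lies at chr3:96268654-96269155 and had 54 and 536 peak bases in the neomycin libraries. Its neighbour H2bc18, an H2B gene at chr3:96269700-96270192, had 54 and 527. In neomycin replicate 2 there were 4 peaks over these 2 genes, and in replicate 1 a single peak in H3c13 that none of the 4 overlapped. The divergent pair H2ac8 and H2bc8 had 100 and 169 peak bases, from a peak in the H2A gene in neomycin replicate 1 and a peak in the H2B gene in replicate 2. The replicate 1 peak ranked low, at percentile 3.15, and that of replicate 2 at 57.9. When peaks rather than windows were matched, 1 region was shared by both neomycin libraries alone. It lies in H1f5, an H1 gene at chr13:21779832-21780625 that had 118 and 220 peak bases with neomycin and 0 and 259 without, the last from a peak elsewhere in its window.

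H1f4 encodes a linker histone and lies at chr13:23621777-23622558. It had no peak in either neomycin library, 2 peaks covering 480 bp in untreated replicate 1 and 1 peak of 276 bp in untreated replicate 2. The untreated peaks overlapped in a region that runs from 23621903 to 23622469, inside the gene, with summits 157 and 532 bp from the start in replicate 1 and 438 bp in replicate 2. H2bc6 was marked only because its annotated span of 37455 bp ends within 1 kb of that region, and its own count of 222 and 78 bases comes from the H1f4 peaks. The other region shared by both untreated libraries alone lies in H3c15, from 96238748 to 96239095.

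Under a looser rule, 17 members (25.4%) had a peak in 1 or 2 neomycin libraries and in no untreated library, beside 5.53% of all genes. The reverse held for 7 members (10.4%), beside 9.66% of all genes. The balance of 17 against 7 turned when a neomycin library was left out, to 11 against 15 without replicate 1 and 10 against 17 without replicate 2. It kept its direction without untreated replicate 1 (34 against 2), without untreated replicate 2 (23 against 7) and with lists of equal length (18 against 6). The shares over all genes moved the same way when a library was left out. Without neomycin replicate 1 they were 3.29% against 19.7% of all genes, beside 16.4% against 22.4% of the histone genes. Without neomycin replicate 2 they were 3.80% against 18.5%, beside 14.9% against 25.4%. Without untreated replicate 1 they were 15.8% against 5.60%, beside 50.7% against 2.99%, and without untreated replicate 2 they were 7.44% against 8.57%, beside 34.3% against 10.4%. With lists of equal length they were 7.59% against 10.0%, beside 26.9% against 8.96%. The share of histone genes on the neomycin side was above that of all genes in each of these, and no test of it was made. Among genes marked in at least 1 library, the counts were 17 against 7 of 56 histone genes and 1210 against 2114 of 13028 genes. For other genes up to 1 kb long they were 10 against 8 of 44, or 8 against 8 of 42 without chemoreceptor genes. A larger part on the neomycin side than over all genes was thus also seen at other short genes. Under the strict rule these short genes gave 4 with neomycin alone and 2 untreated alone. With a −log10 q-value of at least 10 the balance was 4 against 7. With at least 200 bp required it was 6 against 25, a limit that by its construction removes most neomycin peaks, whose median length was 70 and 142 bp over the lists, and few untreated ones. Shares over all genes were not counted at either of these limits.

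The members marked in no library were 2 H2A genes (H2ac15 and H2ac1), 4 H2B genes (H2bc15, H2bc9, H2bc3 and H2bc1), 2 H3 genes (H3c10 and H3c4), 2 H4 genes (H4c17 and H4c3) and the H1 gene H1f6. H1f6, H2ac1 and H2bc1 are known for expression in the testis. The nearest peak of any library was between 1.24 and 33.8 kb away, with a median of 2.90 kb. For H4c17, H2bc3, H2bc9, H3c10 and H3c4 it was within 2 kb, so these genes lay just outside the window, while H2ac1 and H2bc1 lay over 33 kb from any peak. H2ac15 and H2bc15 form a divergent pair, printed above, which held 3 CCAAT boxes and no peak.

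Divergent pairs show where the peaks lie with respect to the starts. Among the members with an annotated strand, 10 pairs of an H2A and an H2B gene start within 1 kb of each other and point apart, with 164 to 281 bp between the starts (median 204.5). A peak lay within 500 bp of the shared stretch in 6, 2, 3 and 2 pairs, and in 8 pairs in any library. None of the 18 peaks touched the stretch between the annotated starts. Of these peaks, 8 lay on the H2A side and 10 on the H2B side. Their nearest edge was 23 to 319 bp beyond the annotated start, with a median of 74 bp. At other divergent gene pairs such peaks were also a minority. Of those with a peak within 1 kb, a peak reached between the starts in 6 of 62, 5 of 58, 15 of 73 and 13 of 58 pairs in the same order of libraries. With so few histone pairs marked per library, a lower share could not be told from these values. All these distances rest on the annotated starts, whose exact position is uncertain. On the gene's own strand, TATAAA lay 15, 21 and 30 bp downstream of the annotated start at H2ac12, H2ac15 and H2ac7. At H2ac22, H2bc8, H2ac1 and H2bc1 it lay 33, 43, 32 and 94 bp upstream.

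**Figure D5:**
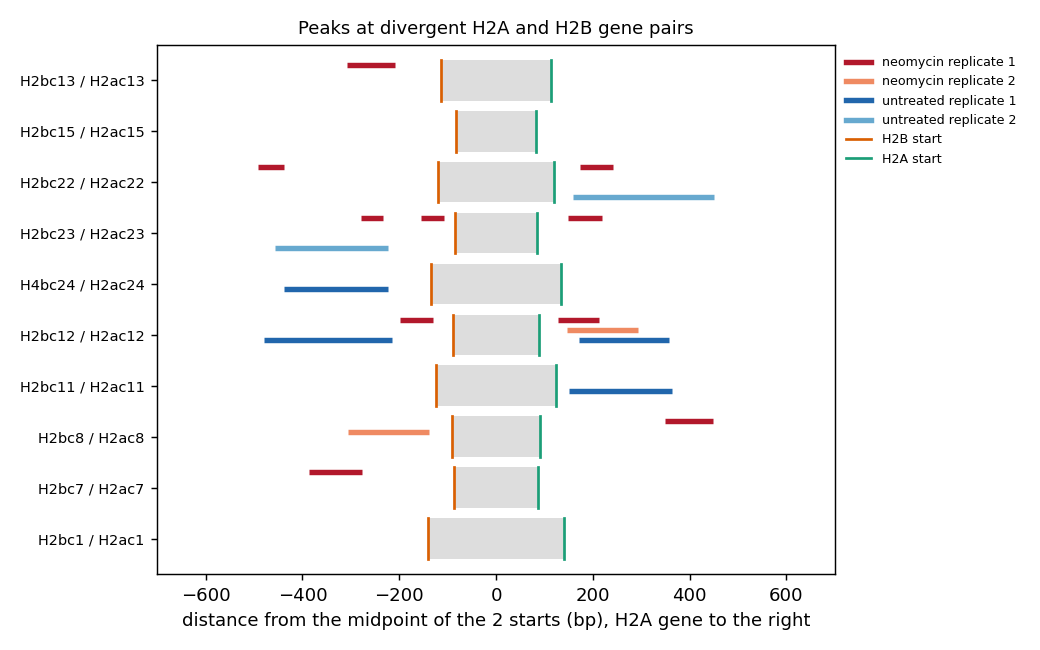
Peaks at the 10 divergent H2A and H2B pairs, as distance in bp from the midpoint between the 2 starts, with the H2A gene drawn to the right. Grey boxes are the stretches between the starts, coloured edges the starts, and coloured bars the peaks of the 4 libraries; every bar lies outside its grey box, 8 on the H2A side and 10 on the H2B side.

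Counted gene by gene, with the divergent pairs included, summits lay downstream of the start more often than upstream. A summit near the starts of 2 members counts once for each. For example, 1 peak of neomycin replicate 1 counts at 189 bp from the start of H2bc13 and at −418 bp from that of H2ac13. Summits within 1 kb of the start of a member with an annotated strand had a median position of 95, 175, 208 and 224.5 bp downstream. Other protein-coding genes gave medians of 224, 172, 197 and 221 bp. The start base itself lay inside a peak in 1 of 29, 1 of 31, 2 of 27 and 2 of 15 histone genes with a peak near the start, beside 4.35%, 4.84%, 18.7% and 22.3% of other such genes. In the untreated libraries 1 more or fewer histone gene would shift these shares by a large step, so a difference was not detectable with these numbers.

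The promoters of the histone genes share letters that the choice of members did not use. RefSeq's promoter table, 250 bases before to 50 after each start, matched 62 members and 17492 protein-coding genes in all. H2bc21, H2bc4, H3c1, H3c7 and H4c14 did not match. CCAAT on either strand was found in 53 of the 62 members (85.5%) and in 39.0% of all promoters. All matched H1, H2A, H2B and H3 promoters held it, but only 3 of 12 H4 promoters did. TATAAA was found in 35 members (56.5%), from 4 of 10 H3 to 8 of 12 H4 promoters, and in 13.3% of all promoters. ATTTGCAT was found in 13 members (20.97%), 7 of them H2A and 6 H2B genes and none of the other types, and in 1.71% of all promoters. Promoter windows of divergent pairs overlap, so 1 site can count under both genes, for each of the motifs. The octamer is the same site in H2ac12 and H2bc12, in H2ac8 and H2bc8, and in H2ac1 and H2bc1. None of the 3 motifs contains another, and a match is a description of the sequence, not a bound site. The median GC content was 45.3% in the histone promoters and 56.3% in all promoters, with medians of 11 and 13 CpG.

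The letters were also counted by how many libraries marked a member. Of the 19 matched members marked in 3 or 4 libraries, 16 held CCAAT, 10 TATAAA and 5 ATTTGCAT. Of the 27 marked in at most 1 library, 22 held CCAAT, 16 TATAAA and 4 ATTTGCAT. These counts are small and the pattern of marking changed between libraries, so no order is read from them.

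Some members share long runs of promoter sequence. An identical run of at least 50 bases with another member was found in 12 of the 62 promoters. H2bc23 and H4bc24 have the same 300 bases, H4c17 and H4c18 share a run of 285, H3c14 and H3c15 one of 231, H2ac18 and H2ac19 one of 219, and H4c11 and H4c12 one of 72. H2ac23 and H2ac24 share runs of 267 and 233 bases with the promoters of H4bc24 and H2bc23. How reads that match several places were treated is not given in the sources used here, so the values of these genes are uncertain. Without the 12 genes, 27, 28, 27 and 13 of 55 members were marked. The coding parts of histone genes, where most peaks lay, are also known to be alike between members. Their sequences were not compared here, and the part of this in the counts was not tested.

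Genes that act on histone genes were marked in a larger share than the histone genes, between 70.8% and 79.2% of the 24 regulators per library. Each regulator is at least 2023 bp long, against a median of 492 bp for the histone genes. Over all protein-coding genes the shares were 39.3%, 37.6%, 51.0% and 39.7%. Genes of matched length were not counted beside this list or those that follow. Of the 24 regulators, 17, 17, 19 and 17 were marked, 10 of them in all 4 libraries, beside 19.8% of all genes. Npat, the coactivator of histone transcription, had 231, 318, 345 and 281 peak bases. Slbp, which binds the stem-loop of histone mRNA, had 64, 110, 0 and 237. Zfp473, a factor in processing histone mRNA, was marked with neomycin alone (48 and 116 peak bases), Nfyb, a subunit of the CCAAT-binding factor, without neomycin alone (569 and 377), and Cstf2, a cleavage factor subunit, in no library. Of 11 replication-independent histone genes, which are expressed outside DNA synthesis too, the marked counts were 8, 6, 10 and 8. Their H2az1, which encodes an H2A variant, was marked in the untreated libraries alone, with 1172 and 389 peak bases. Of 11 histone chaperone genes, they were 8, 7, 10 and 9. Ssrp1, which encodes a subunit of the chaperone FACT, was marked in the untreated libraries alone (350 and 236 peak bases) and Asf1b in none. Untreated replicate 2, the lowest library for the replication-dependent genes, shared the lowest count for the regulators with both neomycin libraries and was not the lowest for the other lists.

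Markers checked the cell type. All 9 supporting and progenitor cell genes, Lgr5 and Sox2 among them, were marked in every library. The 7 hair cell genes gave counts of 3, 1, 4 and 1, with summed peak bases of 229, 151, 1806 and 743. The 6 mesenchyme genes gave 0, 1, 3 and 4, with 0, 113, 1143 and 2053 peak bases. Atoh1, Coch, Twist1 and Prrx2 were without a peak in both neomycin libraries, and Col1a1, Pou3f4, Otof and Slc17a8 in all 4. Other hair cell genes did have peaks with neomycin: Myo6 had 98, 151, 241 and 0 peak bases, Pou4f3 79, 0, 332 and 0, and Myo7a 52, 0, 0 and 0. Gfi1 had 0, 0, 632 and 0. The mesenchyme gene Tbx18 had 0, 113, 0 and 338. The 5 neuron genes gave 2, 2, 3 and 2 (526, 1526, 5733 and 3523 peak bases, of which Gata3 alone had 344, 1130, 4189 and 2874), with Snap25 at 0 in all libraries, and the 5 glia genes 2, 1, 4 and 2 (296, 110, 1278 and 545 peak bases). The 4 endothelial genes gave 2, 1, 1 and 0, the 4 melanocyte genes 2, 2, 2 and 1, and the 5 macrophage and blood genes 1, 0, 0 and 0. The annotated span of the melanocyte gene Pmel contains Cdk2, one of the regulators. Peaks at Cdk2, in replicate 1 of each group, therefore count for Pmel too, which had a further peak in both of these libraries. The part of these markers in the histone gene counts was not tested.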

How the data were processed

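H3K4me3 libraries were taken from the labels as 2 neomycin and 2 untreated samples, and the input libraries were not analysed here. Each deposited list gives the peaks of 1 library. The submitters' processing notes name CASAVA 1.4, Bowtie2, MACS2, deepTools and build mm10, with roles and settings not given in the sources used here. According to the headers of the deposited lists, peaks carry the authors' pileup signal, fold enrichment (a ratio), −log10 p-value and −log10 q-value. They describe or rank peaks within a list. No read totals are given, so depth and its precision are unknown.

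Peaks were assigned to RefSeq gene spans (GRCm38.p6, without exons). Overlap counting and the limma step were tested on simulated data. limma 3.58.1 (R 4.3.3) compared log2 peak bases between groups; the rest ran in Python 3.11.15 with scipy 1.17.1, numpy 2.4.6, matplotlib 3.10.9 and pandas 2.3.3. Peaks off the main chromosomes (133 to 269 per list) were left out. Alternatives covered window, overlap, q-value, list length, left-out libraries, centring and the replicate block. Named genes are those marked in 1 group alone, in all libraries or in none, plus the strongest per cluster. Other members with values, such as H3c15, H1f5, H2aw, H1f1 and H3c11, and Npat and Slbp were chosen after their values were seen. The members and lists were chosen with earlier results of these data known.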

Additional observations from a re-analysis of the deposited data

How the results depend on the processing

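The counts of marked histone genes depended most on peak strength and length. Marked genes under the q-value, 200 bp and gene-body settings were not counted over all genes. With a −log10 q-value of at least 10, 0 and 4 members were marked in neomycin replicates 1 and 2 and 7 and 0 in untreated replicates 1 and 2, 11 in at least 1 library and 0 in all 4. No member was then marked in both libraries of a group and neither of the other (0 in each direction). With at least 200 bp covered, neomycin replicates 1 and 2 marked 4 and 14 members. Of the 3 members marked in all 4 libraries, the count was 1 with the gene body alone or with 200 bp covered and 7 with a window of 2.5 kb. The 4 members marked in both neomycin libraries alone became 1 with the gene body, 1 with lists of equal length and 0 with 200 bp covered. The 2 marked in both untreated libraries alone became 1 with 2.5 kb, 5 with 200 bp, and 1 both around annotated starts and for members up to 1 kb long, the last 2 settings chosen after seeing the data. The looser counts, also chosen after seeing the data, were 17 with neomycin alone, which became 4 at the q-value limit and 6 with 200 bp, and 7 untreated alone, which became 3 with 2.5 kb and 25 with 200 bp.

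Leaving out each library in turn gave 49 to 56 members marked in at least 1 library. In all remaining libraries it was 4 to 12 members, beside 4518 to 5797 of all genes. Members marked in the untreated libraries alone numbered 2 to 7. Those in the neomycin libraries alone ranged from 6 to 13, and the looser counts from 10 to 34 and from 2 to 17. The windows called by limma numbered 2 with the replicate block, 1263 uncentred, and 5, 267, 1 and 2 without neomycin replicate 1, neomycin replicate 2, untreated replicate 1 and untreated replicate 2 (1 to 267), against 0; called histone genes stayed at 0 in each of these fits and in all other fits run. The correlation of deviations between libraries of the same replicate number was −0.0038. This value cannot settle whether the numbers pair the libraries, since covered bases also depend on the unlike peak lengths of the lists. The block changed no other call. The remaining values under other settings stayed within 1.5 times the count given. Unknown depth limits all counts, and the cause of these changes was not tested.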
